A study of Mus musculus with 4 samples.

Results

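The genes described here build and maintain the mitochondrion, in hearts lacking the nuclear receptor ERRα and in wild-type hearts. They are a list of 32 genes for mitochondrial genome upkeep, protein import, chaperones and fusion or fission. The genes were chosen by name, with earlier results of these data known. A gene was counted as measured where a probe set was annotated to it and to no other gene. By that rule 23 of the 32 genes were measured, with 32 probe sets, of 8251 genes on the array, and 20 of them, with 24 probe sets, passed the filter on dim signals that left 5653 genes. The samples were ventricles labelled ERRa ko, at baseline (2 arrays), and ventricles labelled ERRa wt, at baseline (2 arrays). The labels give no age, sex, strain or design of the targeted allele, and do not say whether an array held RNA of 1 animal or of a pool. Total RNA was labelled with biotin and hybridised to 1-colour oligonucleotide arrays, and each probe set has 1 scaled signal per array.

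ERRα is an orphan nuclear receptor that binds DNA as a monomer or dimer and acts with the coactivators PGC-1α and PGC-1β on genes of energy metabolism. Mitochondria carry their own DNA, but nearly all of their proteins are encoded in the nucleus, made in the cytosol and imported through the TOM complex of the outer membrane and the TIM complexes of the inner membrane. Nuclear factors such as NRF-1 and GABP (also called NRF-2) act on genes for the transcription and replication of mitochondrial DNA. Heart muscle is rich in mitochondria, and its organelles keep their number and shape through fusion by mitofusins and OPA1 and fission by the dynamin-related protein DRP1.

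Promoter sequence bears on these genes because the knocked-out protein is a DNA-binding factor. Windows of 250 bases before to 50 bases after each gene start (RefSeq, GRCm38.p6) were held for 30 of the 32 genes. The letters AAGGTCA, the core of the element that ERRα binds, were found on either strand in the windows of 5 of these 30 genes, Hspd1, Hspe1, Timm23, Timm44 and Twnk (16.7%), against 5.38% of 27025 genes and 4.54% of the 4539 kept genes with a window. The longer form TCAAGGTCA, which contains the shorter one, was found in 0 of the 30, and in 0.466% of all genes. The ETS core CCGGAAG, which GABP can bind, was in the windows of 17 of the 30 genes (56.7%), against 9.93% of all genes and 19.9% of kept genes, and the NRF-1 element (GCGC, any base, TGCGC) in those of 5 (16.7%), against 5.19% and 12.1%. A match is a description of the letters and not a bound site. The sequences below are first those of the chaperonin pair, whose genes lie head to head. Next come those of the RNA polymerase gene whose probe sets lay furthest apart, and then the AAGGTCA letters of both import genes. Each is given 5′ to 3′ on the gene's own strand, and capitals mark the matches that are named after the sequences.
Hspe1 and Hspd1, shared stretch from the base after the Hspd1 start that lies before the Hspe1 start to the base before the Hspe1 start, chr1:55087933-55088147, plus strand: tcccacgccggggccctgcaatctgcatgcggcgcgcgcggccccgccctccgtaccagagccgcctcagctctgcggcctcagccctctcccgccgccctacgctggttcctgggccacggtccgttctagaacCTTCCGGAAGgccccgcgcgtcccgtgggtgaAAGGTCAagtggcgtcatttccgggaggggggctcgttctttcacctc
Polrmt, 250 bases before the start, chr10:79746582-79746831, minus strand: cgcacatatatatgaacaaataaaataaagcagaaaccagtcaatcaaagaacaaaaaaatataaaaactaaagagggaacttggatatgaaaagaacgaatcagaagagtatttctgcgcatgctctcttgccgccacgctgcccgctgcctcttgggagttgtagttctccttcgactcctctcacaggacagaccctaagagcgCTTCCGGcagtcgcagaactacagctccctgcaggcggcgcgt
Polrmt, NRF-1 element, chr10:79746568-79746597, minus strand: cctgcaggcgGCGCGTGCGCgtgcgcactg
Timm23, chr14:32201861-32201887, minus strand: cggcgcccggAAGGTCAgcgtggtgaa
Timm44, chr8:4275894-4275920, minus strand: gcgacgcaggAAGGTCAcacgggctct
In the chaperonin stretch the capitals mark a pair of overlapping CCGGAAG matches on opposite strands, whose first bases lie 80 and 77 bases before the Hspe1 start, and AAGGTCA, 48 bases before it. The 300-base windows of Hspe1 and of this Hspd1 start share 285 bases, so these matches count for both genes. Another Hspd1 start lies past the Hspe1 start and closer to it, and its window shares 4 bases with that of Hspe1. In the longer Polrmt stretch the capitals mark CCGGAAG, 43 bases before the start. In the shorter one they mark an NRF-1 element that begins 6 bases before the start. Another NRF-1 element, which begins at the start itself, overlaps that element, and its remaining letters are in lower case. AAGGTCA begins 5 bases before the start of Timm44 and at base 15 after that of Timm23. It alone is in capitals in these stretches. In Timm23 its first letters also end a CCGGAAG match, whose other letters are in lower case.

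Few facts of the whole series bear on these genes. Esrra, the gene knocked out, had signals of 83.6 and 55.2 in knockout, against 2687.8 and 2828.1 in wild type, on 1 probe set, and this was the only call among 7453 probe sets (0.0134%; limma with Benjamini-Hochberg adjustment, adjusted p = 0.0441). Its other probe set gave 922.0 and 1050.2 in knockout, against 8598.1 and 8038.5 in wild type, and did not pass (adjusted p = 0.179); whether either probe set lies within the deletion is not stated in the sources used here. Both knockout signals of the called probe set lay below the floor of 110 and were set to it before the test. No spread between the knockout arrays thus entered its p-value. The call was lost under several other settings, among them a fit that left out this probe set, which are given with the processing. Of the 8 markers of cardiomyocytes, 7 had a probe set and all 7 gave signal above the floor of 110 on every array, with summed signals of 716657 and 863443 in knockout and 850431 and 856464 in wild type. Gene by gene, 6 of the 7 had a lower mean in knockout, with a median log2 difference of -0.11. Summed signals of 6 fibroblast markers were 84120 and 88242 in knockout against 61434 and 71879 in wild type, and those of 4 atrial markers 17396 and 17050 against 10715 and 8885; all 6 fibroblast markers and all 3 kept atrial ones had a higher mean in knockout. Those of 4 smooth muscle markers were 22412 and 14298 against 8035 and 6474, but of the 3 that were kept 1 had a higher and 2 a lower mean in knockout, with a median log2 difference of -0.00. Those of 5 endothelial markers were 9933 and 9843 against 14412 and 11431, and 4 of the 5 had a lower mean in knockout. Summed signals of 6 immune markers were 11669 and 10513 in knockout against 10241 and 9253 in wild type, and those of 4 skeletal muscle markers 3516 and 3516 against 3026 and 3029. The 3 measured adipocyte markers summed to 3433 and 3416 against 4026 and 3820, and the 2 measured erythroid markers to 156859 and 222564 against 203502 and 147993. No marker with a probe set lay below the floor on every array, and the atrial, smooth muscle, immune and skeletal muscle lists each held 1 that lay below it on some. The ratio of 5′ to 3′ signal of β-actin was 0.694 and 0.813 in knockout against 0.966 and 0.909 in wild type, and that of Gapdh 0.994 and 0.968 against 1.04 and 1.01. The part of cell makeup and RNA quality in the differences below was not tested, and in tissue RNA fewer cells of a type and less RNA per cell cannot be told apart.

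No gene of the list passed the test. Of 24 kept probe sets, 0 passed limma at an adjusted p under 0.05 (adjusted p 0.694 to 0.985) and 1, of Polrmt, had an unadjusted p under 0.05, where 6.79% of all probe sets did; with a trend and robust prior 0 passed and 2 had an unadjusted p under 0.05. Standard errors of the log2 differences ran from 0.19 to 0.52, and 95% intervals reached 0.520 to 1.38 to either side, so that differences smaller than these could not be resolved with 2 arrays per genotype. Leaving Polrmt aside, the log2 differences (knockout minus wild type) lay between -0.48 and 0.42. With 1 probe set per gene, that of highest mean signal, 12 of the 20 genes had a lower mean in knockout, where 48.5% of all genes did, and the median log2 difference was -0.12 against 0.01 over all genes. Of the 20 genes, 6 were lower in knockout without overlap of the genotypes, against 17.5% of all genes, and 2 were higher without overlap, against 19.9%. Leaving out wild-type replicate 1 gave a median of -0.22, and leaving out wild-type replicate 2 gave -0.02.

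**Figure D1:**
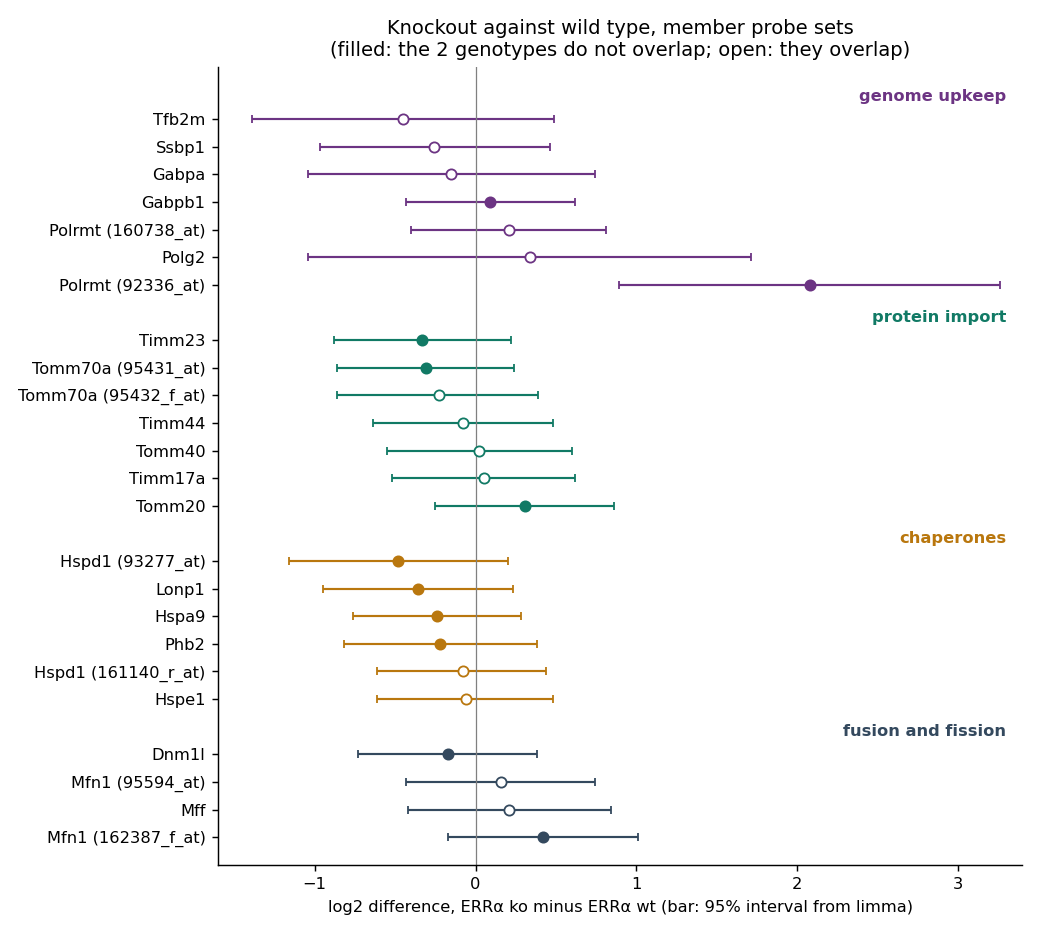
Log2 difference in signal (x axis, knockout minus wild type) for each of the 24 kept probe sets (y axis), grouped by role, with 95% intervals from limma (n = 2 arrays per genotype). Filled points mark probe sets whose genotypes do not overlap. All intervals include 0 except that of the dimmer kept Polrmt probe set, at 0.89 to 3.26, which did not pass after adjustment.

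Genome upkeep covers the factors that transcribe and copy mitochondrial DNA and the nuclear regulators of their genes. Of 12 genes, 8 were measured and 6 kept, with 3 lower and 3 higher in knockout and a median log2 difference of -0.03. Nrf1, Tfb1m, Mterf1 and Twnk had no probe set of their own in the annotation used. Leaving out knockout replicate 1 gave a median of 0.05, leaving out knockout replicate 2 gave -0.04, and leaving out wild-type replicates 1 and 2 gave -0.40 and 0.06. With no filter on dim signals it was 0.15, and with a filter at the 60th percentile -0.20.

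Polrmt, the RNA polymerase that transcribes mitochondrial DNA, gave 995.6 and 850.7 in knockout and 144.0 and 329.9 in wild type on the dimmer of its kept probe sets. Both knockout arrays lay above both wild-type arrays, with a log2 difference of 2.08 (SE 0.45, 4.22-fold, limma adjusted p = 0.694). Both wild-type signals lay under the filter of 350.6, so this probe set was kept only through the knockout arrays, where it was high, and its difference is given as a description. Of the 24 probe sets 1, this one, was at least 1.5-fold apart without overlap, where 6.84% of all kept probe sets were higher and 4.20% lower by this rule; with the filter at the 60th percentile the count was 0, and nothing is read from it. The brighter probe set of the same gene gave 1699.8 and 1780.4 in knockout and 1712.2 and 1329.7 in wild type, a log2 difference of 0.21 (SE 0.23) with overlapping genotypes. The probe sets of Polrmt thus differed by more than 1 on the log2 scale. Another, left out as dim, lay between 53.5 and 106.8 on the 4 arrays, below the floor on each. With the floor at the 40th percentile, which lies above both wild-type signals, the difference on the dimmer kept probe set was 1.43.

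Tfb2m, a transcription factor that opens mitochondrial promoters with the polymerase, gave 1761.5 and 1588.0 in knockout and 1676.6 and 3103.0 in wild type. Wild-type replicate 2 stood apart from the other 3 arrays, whose signals were close to each other, and the log2 difference was -0.45 (SE 0.36, limma adjusted p = 0.837). It was -0.89 when wild-type replicate 1 was left out and -0.00 when wild-type replicate 2 was, so that 1 library decides its size. Ssbp1, the protein that coats exposed single strands of mitochondrial DNA, gave 668.0 and 887.2 in knockout and 802.5 and 1055.9 in wild type (log2 -0.26, SE 0.27), and the genotypes overlapped. The other kept genes of this role, Gabpa and Gabpb1 (subunits of GABP) and Polg2 (the accessory subunit of the mitochondrial DNA polymerase), had log2 differences of -0.15, 0.09 and 0.34. Leaving out wild-type replicate 1 gave -0.56 for Gabpa and -0.35 for Polg2, and leaving out wild-type replicate 2 gave 0.26 and 1.03. Tfam, which packages mitochondrial DNA and activates its transcription, and Polg, the catalytic subunit of the polymerase, were too dim to be tested. Tfam gave 186.4 and 43.4 in knockout and 39.4 and 41.5 in wild type, so 3 of its 4 signals lay below the floor of 110. Polg gave 212.2 and 299.7 in knockout and 130.7 and 78.3 in wild type, where replicate 2 lay below the floor. The knockout arrays lay above the wild-type arrays, and no fold or test is given. Both were named after their values were seen.

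**Figure D2:**
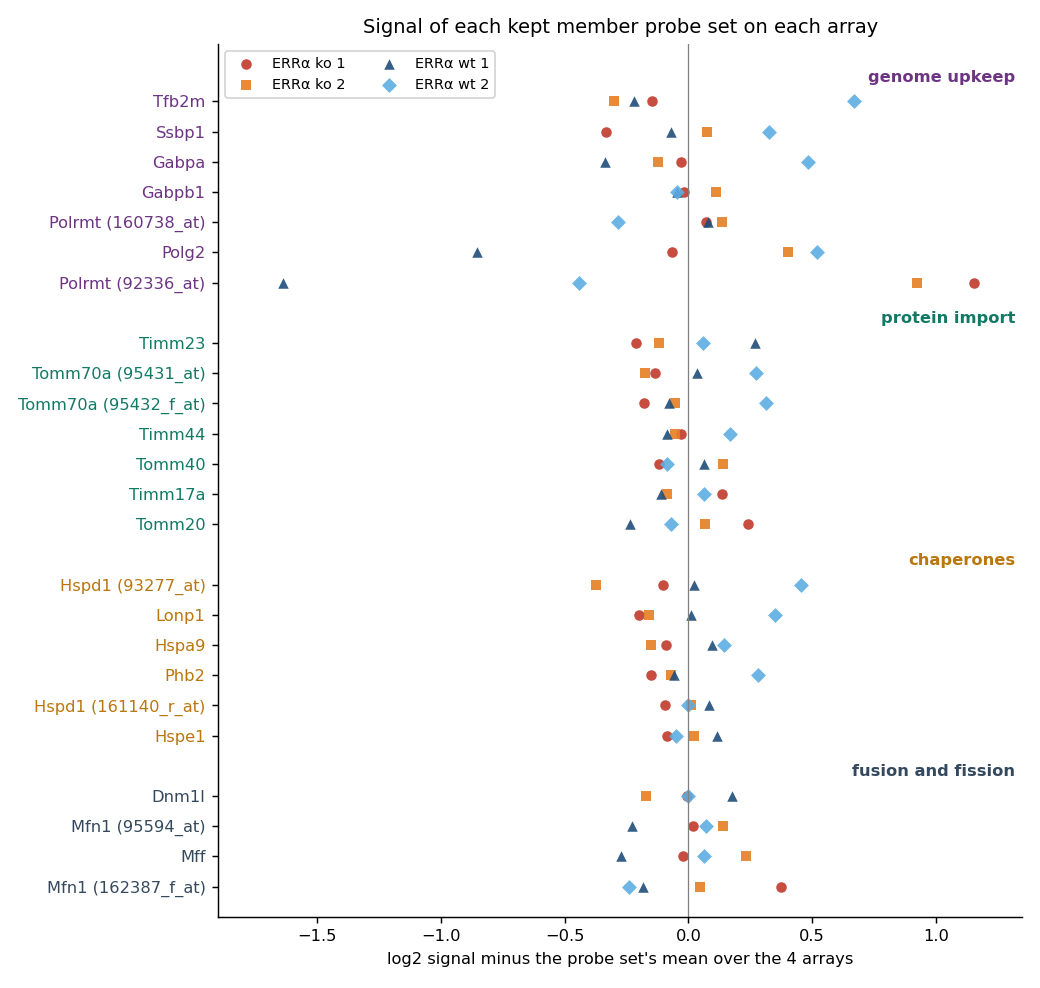
Log2 signal on each array minus the mean of that probe set over the 4 arrays (x axis), for the 24 kept probe sets (y axis), with circles and squares for the knockout arrays and triangles and diamonds for the wild-type arrays. Wild-type replicate 2 had the highest signal on 11 of the 24 probe sets, Tfb2m, Hspd1, Lonp1 and Phb2 among them.

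Protein import covers receptors and channels of the outer and inner membrane. Of 8 genes, 6 were measured and all 6 were kept, with 3 lower and 3 higher in knockout and a median log2 difference of -0.03. Tomm22 and Timm50 had no probe set of their own in the annotation used. Leaving out knockout replicates 1 and 2 gave medians of -0.08 and -0.09, and leaving out wild-type replicates 1 and 2 gave -0.12 and 0.00.

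Timm23, which forms the channel of the inner membrane and carries AAGGTCA in its window (printed above), gave 17601.7 and 18759.9 in knockout and 24538.6 and 21189.4 in wild type. Both knockout arrays lay below both wild-type arrays, by -0.33 on the log2 scale (SE 0.21, 1.25-fold, limma adjusted p = 0.818). Its partner at the channel, Timm17a, and Timm44, which tethers the import motor to it, had log2 differences of 0.05 and -0.08, with overlapping genotypes. Tomm20, a receptor for presequences on the outer membrane, gave 1007.2 and 891.7 in knockout and 722.2 and 810.6 in wild type, higher in knockout without overlap (log2 0.31, SE 0.21, adjusted p = 0.823). Tomm70a, a receptor for carrier proteins, gave 526.6 and 512.7 in knockout and 593.0 and 698.6 in wild type on its dimmer probe set, lower without overlap (log2 -0.31, SE 0.21, adjusted p = 0.823). Its other probe set had -0.23 with overlapping genotypes. The receptors Tomm20 and Tomm70a thus lay on opposite sides of 0, each by a difference whose interval included 0. Tomm40, the channel of the outer membrane, had 0.02, the smallest difference of the 24 probe sets.

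The chaperones, with the protease Lonp1 and the prohibitin Phb2, lay on 1 side of 0 as a group. Of 6 genes, 5 were measured and kept. All 5 had a lower mean in knockout, and 4 of the 5, Hspd1, Lonp1, Hspa9 and Phb2, were lower without overlap, where 17.5% of all genes were. With 1 array left out the log2 difference of Hspe1 ran from -0.15 to 0.02, so its side of 0 was not kept. The median log2 difference was -0.24, and it lay between -0.39 and -0.19 without any 1 array, the lowest of these without wild-type replicate 1. None of the 5 passed (limma adjusted p 0.799 to 0.955). The prohibitin gene Phb, listed as Phb1, shared its probe set with another gene and was left out.

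Hspd1, the HSP60 chaperonin that folds imported proteins in the matrix, gave 25979.8 and 21507.9 in knockout and 28323.3 and 38209.5 in wild type on its brighter probe set. The genotypes did not overlap (log2 -0.48, SE 0.26, 1.39-fold, adjusted p = 0.799 by limma), and the highest signal was that of wild-type replicate 2, without which the difference was -0.26. On its dimmer probe set Hspd1 gave 1143.6 and 1231.2 in knockout and 1295.3 and 1222.2 in wild type, a log2 difference of -0.08 with overlap. Hspe1, the HSP10 lid of the same chaperonin, whose gene shares the stretch printed above with Hspd1, gave 9385.4 and 10127.5 in knockout and 10794.7 and 9627.7 in wild type (log2 -0.06, SE 0.20) and was named after its values were seen. The difference between the chaperonin partners was not tested, and their intervals, -1.16 to 0.20 for Hspd1 and -0.61 to 0.48 for Hspe1, overlap.

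Lonp1, the protease of the matrix that removes damaged proteins and binds mitochondrial DNA, gave 1786.2 and 1835.7 in knockout and 2065.5 and 2610.2 in wild type (log2 -0.36, SE 0.22, 1.28-fold, limma adjusted p = 0.815). Hspa9, or mortalin, the HSP70 of the import motor, gave 12585.6 and 12080.0 in knockout and 14322.4 and 14799.4 in wild type (log2 -0.24, SE 0.19, limma adjusted p = 0.837). Its replicates were close within each genotype, and its difference stayed between -0.28 and -0.19 over all settings tried. Phb2, a scaffold protein of the inner membrane, gave 5007.2 and 5295.7 in knockout and 5330.1 and 6744.3 in wild type (log2 -0.22), and wild-type replicate 1 lay next to the knockout arrays. Phb2 was named after its values were seen. Beside these lower signals, 6 of 7 cardiomyocyte markers had a lower mean in knockout (median -0.11), and the ratio of 5′ to 3′ signal was lower on both knockout arrays for β-actin and, by less, for Gapdh; their part in the result was not tested.

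**Figure D3:**
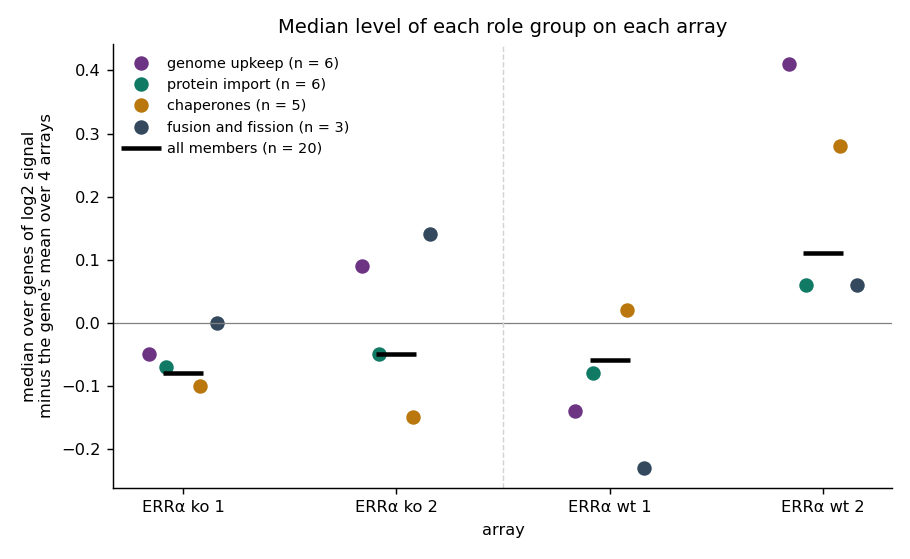
Median, over the genes of each role, of the log2 signal minus the gene's mean over the 4 arrays (y axis), for each array (x axis), with a bar for all 20 kept genes. The chaperone medians were -0.10 and -0.15 on the knockout arrays and 0.02 and 0.28 on the wild-type arrays, and wild-type replicate 1 lay with the knockout arrays for the list as a whole.

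Fusion and fission genes set the shape of the mitochondrial network. Of 6 genes, 4 were measured and 3 kept, with a median log2 difference of 0.16; leaving out knockout replicate 2 gave 0.08, and leaving out wild-type replicates 1 and 2 gave 0.01 and 0.31. Mfn2 and Opa1 had no probe set of their own in the annotation used. Mfn1, the mitofusin that joins outer membranes, gave 2588.4 and 2060.1 in knockout and 1758.8 and 1692.3 in wild type on its dimmer probe set. Both knockout arrays lay above both wild-type arrays (log2 0.42, SE 0.22, 1.34-fold, limma adjusted p = 0.795). On the brighter one it gave 16973.7 and 18467.1 in knockout and 14312.8 and 17622.1 in wild type, with overlap (log2 0.16, SE 0.22). The dimmer probe set has a suffix that marks possible cross-hybridization, and the brighter one does not.

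Dnm1l, the fission dynamin DRP1, gave 2636.4 and 2348.0 in knockout and 2986.2 and 2640.2 in wild type. The genotypes did not overlap, but knockout replicate 1 and wild-type replicate 2 were nearly equal (log2 -0.17, SE 0.21, limma adjusted p = 0.892). Mff, which recruits DRP1 to the outer membrane, gave 6244.9 and 7458.8 in knockout and 5248.8 and 6633.5 in wild type, with overlap (log2 0.21, SE 0.24). Fis1, an adaptor of the outer membrane, lay between 37.3 and 99.2 on the 4 arrays, below the floor on each, and was not tested.

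Across the roles, wild-type replicate 2 had the highest signal on 11 of the 24 probe sets (45.8%), where it had the highest on 23.1% of all kept probe sets. By role this was 4 of 7 probe sets for genome upkeep, 3 of 7 for import, 4 of 6 for chaperones and 0 of 4 for fusion and fission. The median of the 20 genes relative to their own means was -0.08 and -0.05 on the knockout arrays and -0.06 and 0.11 on the wild-type arrays. Members sit mostly at high signals, with 8 of the 20 genes in the highest of 5 equal bins of kept genes by mean signal, where the median log2 difference of all genes was -0.05, and 6 in the next, where it was -0.00. A further 8 probe sets of the list fell below the filter, with signals between 32.8 and 327.1.

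Other genes of the same processes were read from lists in which 0 genes passed limma in either direction. At an unadjusted p under 0.05, 1 gene for import, 1 for proteases and chaperones and 2 for the mitochondrial ribosome were lower and 1 regulator was higher, on the probe set of highest mean signal, where 2.74% of all genes were lower and 3.77% higher by this rule. Of 19 kept genes for import and sorting outside the list, 12 had a lower mean, and in 7 (36.8%) both knockout arrays lay below both wild-type arrays, against 48.5% and 17.5% of all genes. Their median was -0.15. Gfer, the sulfhydryl oxidase of the intermembrane space import route, gave 1949.2 and 1929.9 in knockout and 4244.2 and 2895.3 in wild type (log2 -0.85, SE 0.27, limma adjusted p = 0.694). Tomm34, a cytosolic cochaperone, had -0.73 (SE 0.37). Mtx1, an outer membrane sorting protein, had 1.11 on 1 probe set, without overlap, and 0.29 on its other probe set.

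Of 8 kept genes for other mitochondrial proteases and chaperones, a list that also holds the mainly cytosolic Cryab, 6 had a lower mean, in 4 of them with no overlap of the genotypes, against 48.5% and 17.5% of all genes, and the median was -0.20. Leaving out knockout replicate 2 gave -0.02, and leaving out wild-type replicate 1 gave -0.08. Stoml2, a stomatin-like scaffold of the inner membrane, gave 2076.2 and 4048.7 in knockout and 5754.8 and 5938.3 in wild type (log2 -1.01, SE 0.37, limma adjusted p = 0.725). Clpp, the protease subunit of the ClpXP complex of the matrix, gave 4153.9 and 3850.8 in knockout and 5460.0 and 5038.6 in wild type (log2 -0.39, SE 0.20, limma adjusted p = 0.791). Both were lower in knockout without overlap, the side on which Lonp1 and Hspd1 lay. Htra2, a protease of the intermembrane space, had 0.30 on 1 probe set and 0.22 on the other.

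Mitochondrial ribosome and translation genes were the largest list, with 64 kept genes, of which 44 had a lower mean, 19 (29.7%) were lower without overlap and 5 (7.81%) higher without overlap, against 48.5%, 17.5% and 19.9% of all genes. Their median was -0.11 and lay between -0.16 and -0.07 without any 1 array, lowest without wild-type replicate 2 and highest without knockout replicate 1. Mrps22 and Mrps33, of the small subunit, had -0.85 and -0.53 and Mrpl34, of the large subunit, -0.63, each without overlap. Of these, Mrps33 gave 1700.2 and 1426.8 in knockout and 2249.5 and 2245.2 in wild type (limma adjusted p = 0.744). Of the 14 kept genes for DNA and RNA upkeep outside the list, 11 had a lower mean, against 48.5% of all genes. Without overlap 3 were lower and 1 higher, against 17.5% and 19.9% of all genes. Their median over the 14 genes was -0.13, and leaving out knockout replicates 1 and 2 gave -0.02 and -0.34. Lrpprc, which stabilises mitochondrial messenger RNA, gave 4940.3 and 4786.7 in knockout and 6030.9 and 7079.0 in wild type (log2 -0.43, SE 0.21, limma adjusted p = 0.781). Hsd17b10, a subunit of mitochondrial RNase P, had -0.36, and Pnpt1, an RNA-degrading phosphorylase, -0.62 with overlap.

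The 10 kept genes for shape, contact sites and turnover had a median of -0.07, and leaving out knockout replicates 1 and 2 and wild-type replicate 1 gave -0.13, -0.03 and 0.03. Of these genes 6 had a lower mean, 4 were lower without overlap and 2 higher without overlap, against 48.5%, 17.5% and 19.9% of all genes. Among them Rhot1 and Trak1, which link mitochondria to microtubule motors, had -0.46 (SE 0.34) and 0.36 (SE 0.27), and Miga2, a fusion regulator, 0.23. For Rhot1, wild-type replicate 1 (1105.2) lay next to the knockout arrays (1063.7 and 1085.6), and wild-type replicate 2 stood apart at 1972.4. For Trak1, wild-type replicate 2 (5045.6) lay next to the knockout arrays (5099.9 and 5632.2), and wild-type replicate 1 stood apart at 3435.7. The 7 kept regulators of biogenesis outside the list had a median of -0.07, and leaving out the same arrays in the same order gave -0.17, 0.08 and 0.02. Of these regulators 5 had a lower mean, 1 was lower without overlap and 2 were higher without overlap, beside the same shares of all genes. Ppargc1a, the gene of the coactivator PGC-1α, gave 792.8 and 589.3 in knockout and 368.4 and 434.6 in wild type, higher in knockout without overlap (log2 0.77, SE 0.25, limma adjusted p = 0.694). Sirt3, the deacetylase of the mitochondrial matrix, gave 2169.1 and 2049.3 in knockout and 1320.4 and 1698.5 in wild type (log2 0.49, SE 0.23). Nfe2l1, a stress-responsive factor that shares the alias NRF1 with Nrf1 and is not a gene of the list, had 0.33 on 1 probe set and -0.04 on the other. Ppargc1b and Esrrg had no probe set of their own in the annotation used.

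**Figure D4:**
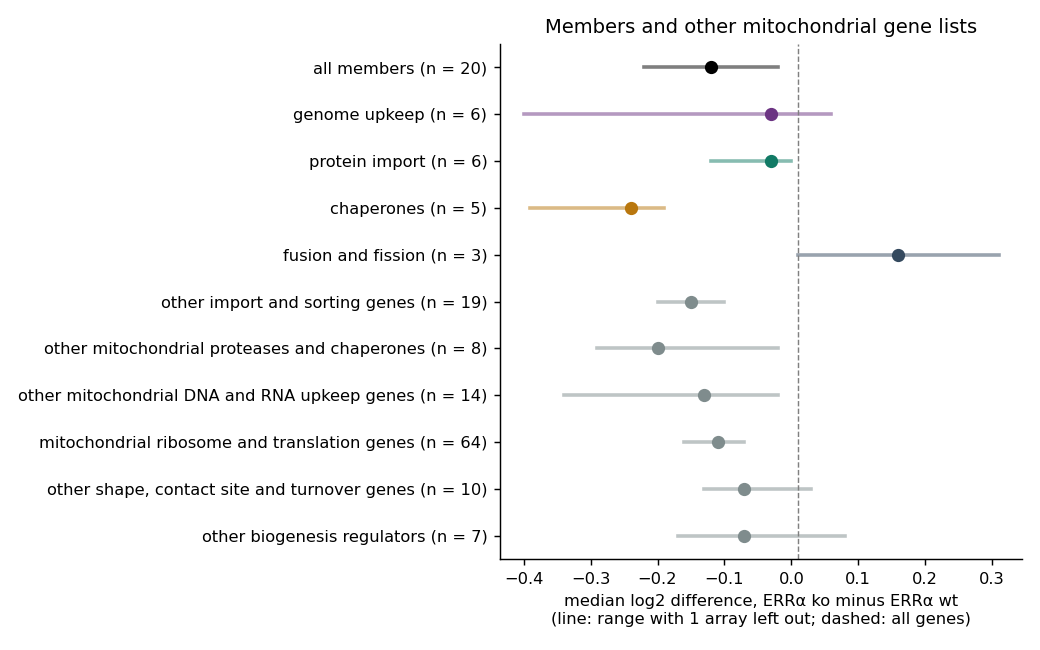
Median log2 difference (x axis, knockout minus wild type) of the 20 kept genes, of each role and of 6 further mitochondrial lists (y axis, with the number of kept genes). Lines run from the lowest to the highest median with 1 array left out, and the dashed line is the median of all genes at 0.01. The lines of the 20 genes, of import and of chaperones lie wholly below the dashed line, as do those of 4 of the 6 further lists, and those of genome upkeep, fusion and fission, shape and regulators reach or cross it.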

How the data were processed

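Each value is an intensity per probe set, deposited by the authors as a linear signal; the mean after leaving out 2% of probe sets at each end was 1501 on every array, so the signals had been scaled by array. The software, summary method and genome build are not given in the sources used here. Titles gave the genotype of each array. Of 12488 probe sets, 66 controls were left out, as were those with a mean under the 40th percentile (350.6), so 7453 were tested. A floor at the 20th percentile (110) was set before log2. The comparison used limma 3.58.1 (R 4.3.3) without pairing, adjusted over the 7453 probe sets by Benjamini-Hochberg. A run on simulated data checked only the mean size of added changes, larger than most in the list, and not the calls. Whether arrays hold separate animals is not stated, so p-values measure only how far these samples spread, and that may be technical. The smallest two-sided p of an exact permutation test of 2 against 2 is 0.333; it was not run.

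Symbols came from the platform annotation, updated by gene identifier: 10817 of 10833 probe sets with 1 symbol matched RefSeq (GRCm38.p6), and 396 had several. A synonym counted only where the listed name is no current symbol. The genes and lists were chosen with earlier results of these data known. Signals on all arrays are given for probe sets at least 1.5-fold apart without overlap, the 3 genes of lowest p and the brightest of each role, and genes whose probe sets differ by over 1; outside the list, the regulators and the 3 genes of lowest p of each list are named. Each array was left out in turn, and the floor, filter, scaling, prior and pairing were varied.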

Additional observations from a re-analysis of the deposited data

How the results depend on the processing

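No kept probe set of the list passed limma under any of the alternatives, where the lowest adjusted p was 0.463. The count of calls over all probe sets, 1, was 0 with the floor at the 5th or 40th percentile, with no filter and with the replicate block. It was also 0 without probe sets of cross-hybridizing suffixes. That setting left out the called Esrra probe set itself, so the loss there was fixed by the setting. The count was 2, both of Esrra, with the filter at the 60th percentile and with the trend and robust prior. The replicate block called 0 probe sets of the list, as the fit without it did; same-numbered arrays deviated from their group means with a correlation of 0.0113 over 7453 probe sets, so the numbers were not taken to pair samples. The count of listed probe sets at least 1.5-fold apart without overlap, 1, was 2 with no filter (Polrmt and Polg), 0 with the filter at the 60th percentile, which left out the dimmer Polrmt probe set, and 2 to 3 with 1 array left out. With 1 array left out the median log2 difference ran from -0.22 to -0.02 over the kept genes of the list and from -0.40 to 0.06 for genome upkeep. It ran from -0.12 to 0.00 for import, from -0.39 to -0.19 for chaperones and from 0.01 to 0.31 for fusion and fission. In these fits a genotype left with 1 array is assumed to vary like the other. With no filter the medians were -0.06 over all genes of the list, 0.15 for genome upkeep and 0.08 for fusion and fission, and with the filter at the 60th percentile -0.16, -0.20 and 0.16. The floor, scaling and probe set rules left the medians of the list between -0.16 and -0.12, of genome upkeep between -0.09 and -0.03, of import between -0.07 and -0.03, of chaperones between -0.28 and -0.19 and of fusion and fission between 0.11 and 0.22. Fewer arrays or probe sets entered some of these fits; otherwise the cause was not tested. All 14 probe sets whose signals are given by rule kept their sign under all alternatives that could be fitted, Tfb2m only at -0.00 in 1 of them. They were picked in part by lowest p, so a stable sign is partly given by the choice. Of the other kept probe sets, those of Gabpa, Polg2, Tomm40, Timm17a, Timm44 and Hspe1 changed sign when 1 array was left out. The same alternatives for the lists outside the 32 genes were added after seeing the data; the median of shape, contact site and turnover genes was -0.01 with quantile normalization and -0.12 with median scaling.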
